A study of Homo sapiens with 4 samples.

Results

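The genes described here are 41 genes of the centromere, the kinetochore and mitosis, chosen by function with the signals of these arrays already known. The low CENPH signal in Sp1-silenced cells was among the values in view, so the ratios below describe the genes and test nothing. A spot was matched for 40 of the 41 genes, out of 17721 genes with a matched spot, and no spot was matched for SPC24. The RNA came from OVSAYO cells, a line from a clear cell carcinoma of the human ovary, and was labelled with Cy3 and hybridised to 4 single-colour arrays on 1 slide. Each array held 1 condition. NS-si cells carried a non-specific control siRNA and were not exposed to CoCl2. Sp1-si cells carried a pool of siRNAs against the transcription factor Sp1, bought from another maker than the control siRNA, and were not exposed either. According to the labels, NS-si CoCl2 and Sp1-si CoCl2 cells were cultured for 40 h after the same transfections and then kept for 4 h in 0.5 mM CoCl2, an agent that mimics hypoxia. All 4 conditions share the cell line and the transfection. The study's figure legend gives a shorter culture before the exposure than the labels followed here. The study asked which genes respond to CoCl2 in a manner that depends on Sp1.

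Each condition is 1 array, so no difference has a replicate check, no p-value was computed, and precision is limited by the number of arrays. Signals are the processed signals of the scanner software. Ratios are differences of log2 signals after the 75th percentile of each array was subtracted. The SD given beside a ratio is that between repeated spots, taken from the probe itself where it had at least 8 spots and otherwise from 10-spot probes of like signal. It was 0.08 at the median of the 40 genes for the Sp1-si to NS-si ratio without CoCl2. It does not cover differences between cultures or between probes. Of the 43376 spots on an array, 33081 to 34542 were well above background. SP1 itself, on its 10-spot probe, had signals of 553 (NS-si), 39.2 (Sp1-si), 429 (NS-si CoCl2) and 38.7 (Sp1-si CoCl2), so its log2 Sp1-si to NS-si ratio was -3.77 without and -3.87 with CoCl2. Of 9 epithelial and clear cell carcinoma markers, 9 were well above background on all 4 arrays. Of 7 matched markers of blood, endothelial and stromal cells, 4 (PTPRC, PECAM1, COL3A1 and PDGFRB) were above background on no array and 3 (CD3E, CD68 and VWF) on all.

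The centromere is the chromosomal site, marked by the histone H3 variant CENP-A, on which the kinetochore is built. A constitutive network of inner proteins sits on CENP-A chromatin, the MIS12 complex links it outward, and the NDC80 complex binds the spindle microtubules. The spindle checkpoint reads unattached kinetochores and holds back the anaphase-promoting complex until all chromosomes are attached. Many of these genes are transcribed in a cell cycle dependent manner with a peak in G2 and mitosis, and mitotic genes of this kind often carry CCAAT boxes and a cell cycle homology region (CHR) near their starts, whereas Sp1 binds GC boxes.

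The upstream sequences of 6 of the genes that were at least 2-fold lower in Sp1-si cells both without and with CoCl2 are shown, since these genes were low together. They are the 3 measured subunits of the NDC80 complex (NDC80, NUF2 and SPC25), the inner kinetochore genes CENPK and CENPQ, and the outer kinetochore gene ZWINT. They come from the RefSeq annotation of GRCh38.p14 and run 5′ to 3′ on the strand of the gene up to its start, cut short where another annotated gene begins. The stretches lie at chr18:2571506-2571556 on the plus strand for NDC80, chr1:163321736-163321953 on the plus strand for NUF2, chr2:168890431-168890630 on the minus strand for SPC25, chr5:65563169-65563295 on the minus strand for CENPK, chr6:49463254-49463369 on the plus strand for CENPQ and chr10:56361274-56361458 on the minus strand for ZWINT. Capitals mark a match on either strand. The letters searched for a GC box were GGGCGG. For a CCAAT box they were the name itself, and the CHR was spelled TTTGAA.
NDC80: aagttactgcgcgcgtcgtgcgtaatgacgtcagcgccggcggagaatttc
NUF2: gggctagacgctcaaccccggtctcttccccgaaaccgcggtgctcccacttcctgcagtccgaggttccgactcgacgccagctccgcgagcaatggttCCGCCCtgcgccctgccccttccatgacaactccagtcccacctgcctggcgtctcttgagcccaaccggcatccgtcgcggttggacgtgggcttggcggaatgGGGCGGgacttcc
SPC25: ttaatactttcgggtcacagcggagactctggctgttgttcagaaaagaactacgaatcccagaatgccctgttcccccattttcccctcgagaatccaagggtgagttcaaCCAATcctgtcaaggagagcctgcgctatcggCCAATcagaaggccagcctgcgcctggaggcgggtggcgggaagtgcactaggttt
CENPK: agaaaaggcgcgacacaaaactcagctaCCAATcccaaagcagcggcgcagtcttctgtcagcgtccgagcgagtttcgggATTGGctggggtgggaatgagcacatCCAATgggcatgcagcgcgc
CENPQ: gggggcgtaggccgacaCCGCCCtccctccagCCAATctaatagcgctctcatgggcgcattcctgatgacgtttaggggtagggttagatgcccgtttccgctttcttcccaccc
ZWINT: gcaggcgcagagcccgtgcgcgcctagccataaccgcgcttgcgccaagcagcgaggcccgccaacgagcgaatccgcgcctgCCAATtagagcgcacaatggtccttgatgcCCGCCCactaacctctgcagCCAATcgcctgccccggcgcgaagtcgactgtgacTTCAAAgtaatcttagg
The CENPK stretch holds 3 CCAAT boxes and no GC box, the SPC25 stretch 2 CCAAT boxes and no GC box, and the NUF2 stretch 2 GC boxes and no CCAAT box. ZWINT holds letters of each of the 3 kinds, and the short NDC80 stretch of 51 bases holds none. The cut stretches of CENPP (117 bases) and MAD2L1 (109 bases), which are not printed, hold none either. In the longer window of 250 bases counted below, CENPP and MAD2L1 do have a CCAAT box, and SPC25 has a CHR.

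The same letters were counted in the 250 bases before the start of all genes in the RefSeq promoter table, on both strands. The table had an entry for 32 of the 40 genes, and CENPH and BIRC5 were among those without one. GGGCGG was in at least 1 promoter of 21 of these 32 genes (65.6%), against 69.2% of 12079 measured genes. CCAAT was found in 19 (59.4%), against 41.3%. TTTGAA was found in 9 (28.1%), against 12.9%. The median log2 Sp1-si to NS-si ratio without CoCl2 was -0.75 for the 21 member genes with a GC box and -1.09 for the 11 without one, while it was -1.05 for the 19 with a CCAAT box and -0.21 for the 13 without one. For TTTGAA it was -1.05 for the 9 with it and -0.71 for the 23 without. Over all genes measured, the medians with and without the letters were 0.01 and -0.03 for GGGCGG. They were 0.01 and -0.02 for CCAAT and -0.03 and 0 for TTTGAA. Of all genes with CCAAT, 5.63% were at least 2-fold lower without CoCl2, against 6.28% of those without the letters. The shares with and without the letters were 5.84% and 6.40% for GGGCGG, and 9.15% and 5.55% for TTTGAA. A match is a run of letters and not a measured binding site, and the member medians rest on few genes.

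Most genes of the set had lower signals in Sp1-si cells. Without CoCl2, the median log2 Sp1-si to NS-si ratio of the 40 genes was -0.87, or 1.83-fold lower, against -0.01 for all 15199 genes measured. It was below 0 for 35 of the 40 genes, and 18 were at least 2-fold lower and 0 at least 2-fold higher. Among all genes measured, 6.18% were at least 2-fold lower and 6.18% at least 2-fold higher. Under normexp, 13 of the 40 were at least 2-fold lower, against 3.39% of all genes. With CoCl2, on the other pair of arrays, the median was -0.61 against -0.03 for all genes, and 11 members were at least 2-fold lower against a background of 8.04%. The only one that was at least 2-fold higher was the centriole gene CENPJ, against a background of 7.17%. The cultures were measured in bulk, so fewer cells in G2 and mitosis and less of these RNAs in each cell cannot be told apart.

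**Figure D1:**
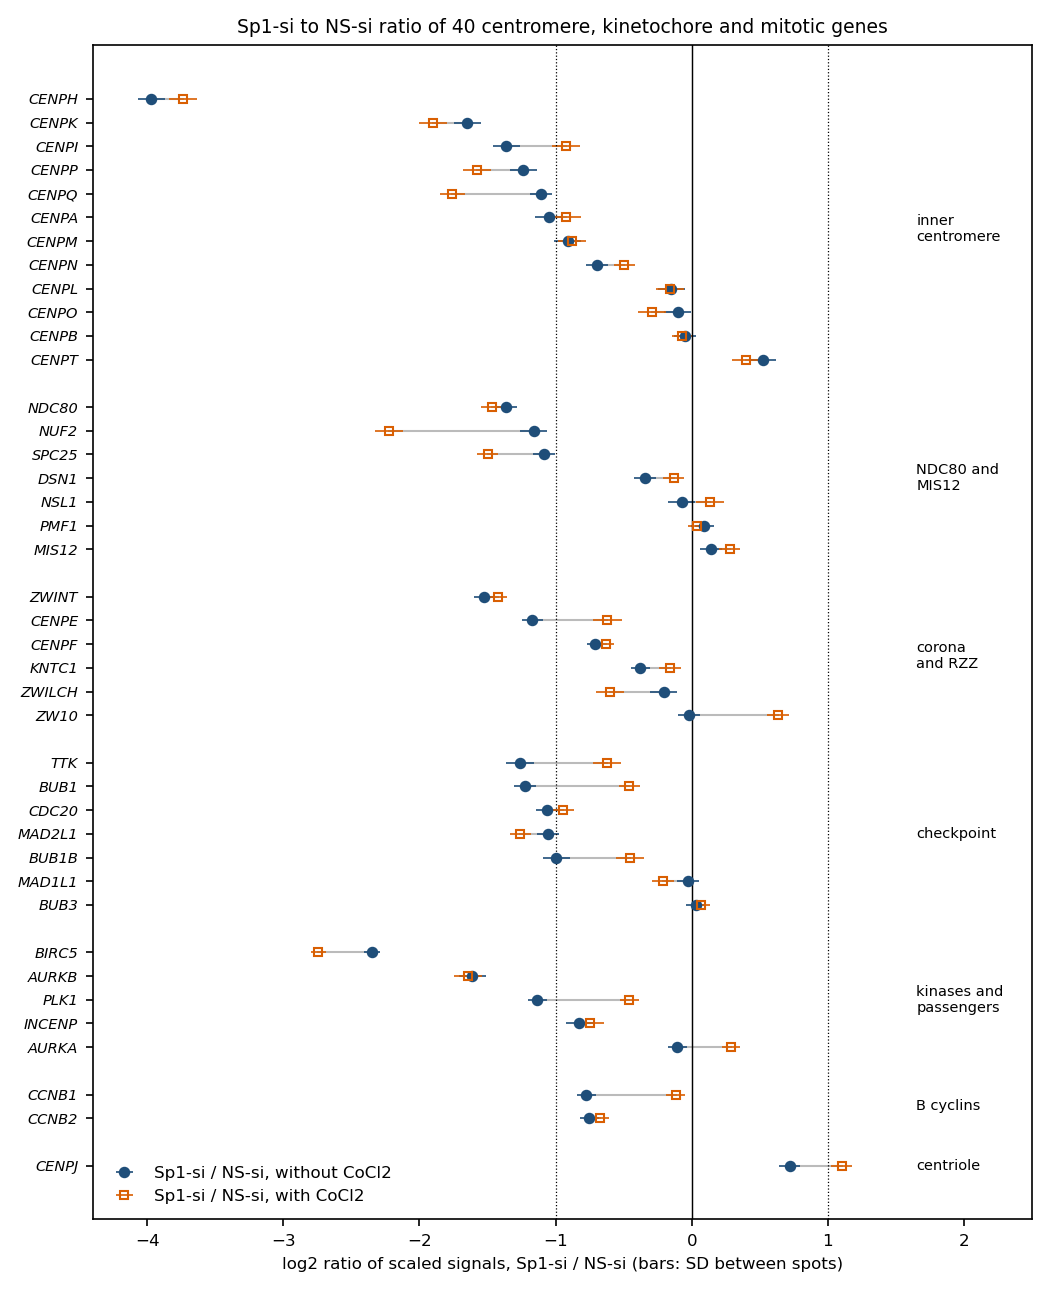
Log2 Sp1-si to NS-si ratio (x axis) of each of the 40 genes (y axis, by role), without CoCl2 as filled circles and with CoCl2 as open squares, with bars for the SD between spots and dotted lines at 2-fold. CENPH lies at -3.97 and -3.74, BIRC5 at -2.35 and -2.74, and CENPJ at 0.72 and 1.102.

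The pairs without and with CoCl2 share no array, and the genes lay in much the same order in both. The 11 genes that were at least 2-fold lower in both were CENPH, CENPK, CENPP, CENPQ, NDC80, NUF2, SPC25, ZWINT, MAD2L1, AURKB and BIRC5, whereas 4.12% of all genes were so in both. A further 7, CENPA, CENPI, CENPE, BUB1, TTK, CDC20 and PLK1, passed 2-fold only without CoCl2, and 22 passed in neither. The ratios with and without CoCl2 correlated across the 40 genes with Pearson's r = 0.91 and Spearman's rho = 0.87, and r was 0.81 across 14862 genes, where the points are genes that share arrays and not replicates. Just inside the 2-fold limit without CoCl2 lay CENPA at -1.05 and MAD2L1 at -1.05, and just outside lay BUB1B at -0.99 and CENPM at -0.91. With CoCl2, MAD2L1 at -1.26 was just inside and CDC20 at -0.94 just outside.

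**Figure D2:**
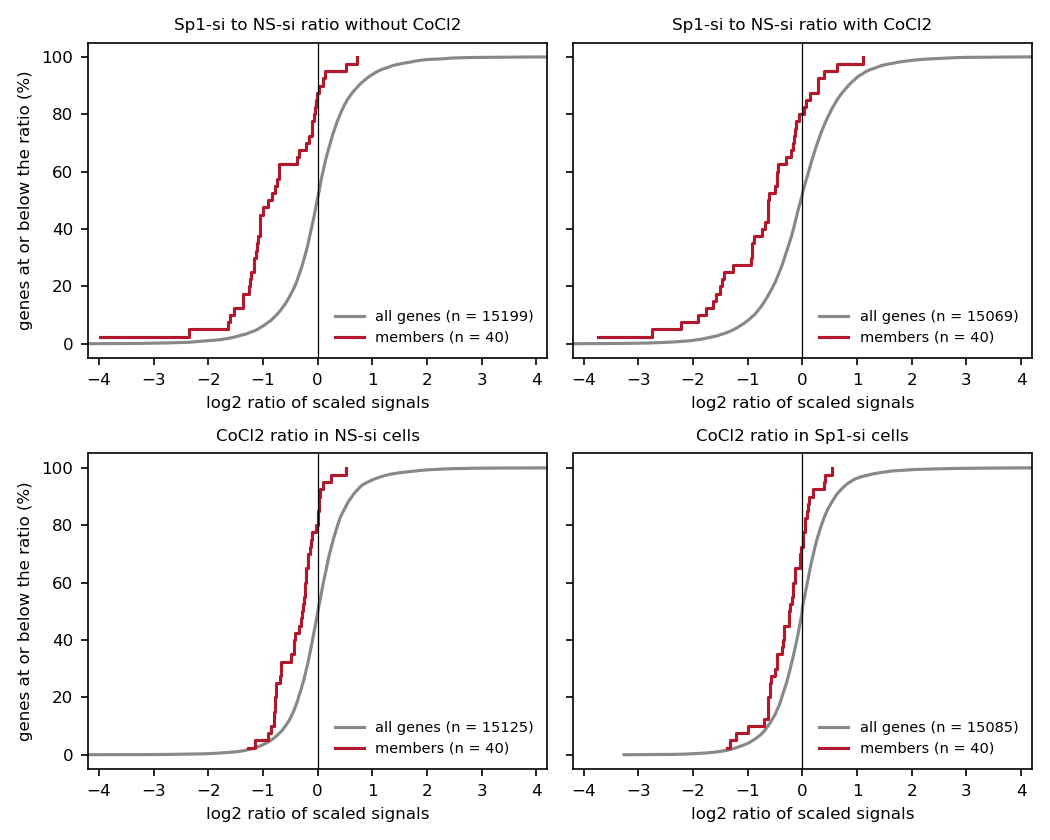
Cumulative share of genes (y axis, percent) at or below each log2 ratio (x axis), for the 40 members in red and all genes measured in grey, in the Sp1-si to NS-si ratios (top) and the CoCl2 ratios (bottom). Except at the low end, the red curves lie to the left of the grey ones. The member medians are -0.87 without CoCl2, -0.61 with CoCl2, -0.27 for CoCl2 in NS-si cells and -0.23 for CoCl2 in Sp1-si cells.

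Of the 12 genes of the centromere and inner kinetochore (labelled inner centromere in the figure), 6 had an Sp1-si to NS-si ratio at least 2-fold lower without CoCl2 and 4 with CoCl2. The medians were -0.98 and -0.90. The shares over all genes were 6.18% and 8.04%. CENPH, a subunit of the constitutive network that helps to place new CENP-A and to anchor the outer kinetochore, stood far from the others. Its signals were 1174 (NS-si), 72.1 (Sp1-si), 921 (NS-si CoCl2) and 90.8 (Sp1-si CoCl2). Both Sp1-si arrays were low and both NS-si arrays high. The log2 ratio was -3.97 ± 0.10 (SD between spots) without CoCl2, 15.7-fold lower, and -3.74 with CoCl2, 13.3-fold lower. Under a model-based background correction (normexp) these log2 ratios were smaller, at -3.15 and -3.03. Counted from the lowest, this was place 5 of 15199 genes without CoCl2 and place 8 of 15069 genes with it, and the ratio of SP1 itself was -3.77 and -3.87. The CENPH probe (A_23_P110802) was the only probe matched to this gene, and CoCl2 moved it little, with a log2 CoCl2 ratio of -0.12 when Sp1 was intact and 0.11 when it was silenced.

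CENPK, which binds CENPH and CENPI in the same subcomplex, had signals of 397 (NS-si), 122 (Sp1-si), 292 (NS-si CoCl2) and 103 (Sp1-si CoCl2). Its log2 Sp1-si to NS-si ratios were -1.65 and -1.90, and the stretch before its start is the one with 3 CCAAT boxes. CENPI, the third gene of this subcomplex, was dim, with signals of 111, 41.4, 70.0 and 48.6 in the same order of arrays. It gave -1.36 without CoCl2 and -0.92 with CoCl2. CENPM, another gene of that subcomplex, gave -0.91 and -0.88. The 4 subcomplex genes were thus below NS-si on both pairs of arrays.

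CENPP and CENPQ belong to another subcomplex of the inner network. CENPP had signals of 550 (NS-si), 224 (Sp1-si), 470 (NS-si CoCl2) and 208 (Sp1-si CoCl2), with ratios of -1.24 and -1.57. CENPQ, on a 9-spot probe, had signals of 777, 348, 522 and 203 in the same order, with ratios of -1.11 ± 0.08 and -1.76 ± 0.09 (SD between spots). Their partner CENPO was at -0.10 and -0.29. CENPO thus differed from CENPP and CENPQ by more than the spread between spots, which does not cover differences between probes.

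CENPA, the histone variant itself, had signals of 331 (NS-si), 154 (Sp1-si), 167 (NS-si CoCl2) and 116 (Sp1-si CoCl2), with Sp1-si to NS-si ratios of -1.05 and -0.92. CENPB, which binds the centromeric alpha-satellite repeat, gave -0.05 and -0.07, and CENPL gave -0.15 and -0.16. CENPT, which carries NDC80 complexes on its own long arm, was the highest of the inner genes at 0.52 and 0.40, and its other probe gave 0.61 and 0.15.

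The NDC80 complex is the rod that grips microtubules. Its 3 measured subunits were at least 2-fold lower in Sp1-si cells on both pairs of arrays, against 4.12% of all genes. NDC80 had signals of 1215 (NS-si), 454 (Sp1-si), 428 (NS-si CoCl2) and 204 (Sp1-si CoCl2). NUF2, its coiled-coil partner, had signals of 649, 279, 465 and 131 in the same order, and SPC25, on the inner end of the rod, 1264, 573, 618 and 288. For each of the 3 genes NS-si was the highest array and Sp1-si CoCl2 the lowest. The log2 Sp1-si to NS-si ratios without and with CoCl2 were -1.37 and -1.47 for NDC80, -1.16 and -2.22 for NUF2, and -1.09 and -1.50 for SPC25.

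The MIS12 complex is the platform on which the NDC80 complex docks. MIS12 had signals of 644 (NS-si), 684 (Sp1-si), 325 (NS-si CoCl2) and 519 (Sp1-si CoCl2), and NSL1 had 262, 240, 120 and 173 in the same order. DSN1 had 766, 582, 382 and 459, and PMF1 1911, 1963, 1657 and 2240. The Sp1-si to NS-si ratios of these 4 genes ran from -0.34 (DSN1) to 0.14 (MIS12) without CoCl2 and from -0.13 (DSN1) to 0.28 (MIS12) with CoCl2, and 0 of 4 passed 2-fold. In the CoCl2 ratios too, 0 of 4 passed 2-fold. MIS12, NSL1 and DSN1 were at -0.76, -0.91 and -0.78 in NS-si cells and -0.62, -0.70 and -0.57 in Sp1-si cells, while PMF1 was at 0.02 and -0.03. In NS-si cells the median CoCl2 ratio was -0.77 for these 4 genes and -0.81 for the 3 NDC80 subunits, and in Sp1-si cells it was -0.59 for the former and -1.32 for the latter.

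**Figure D3:**
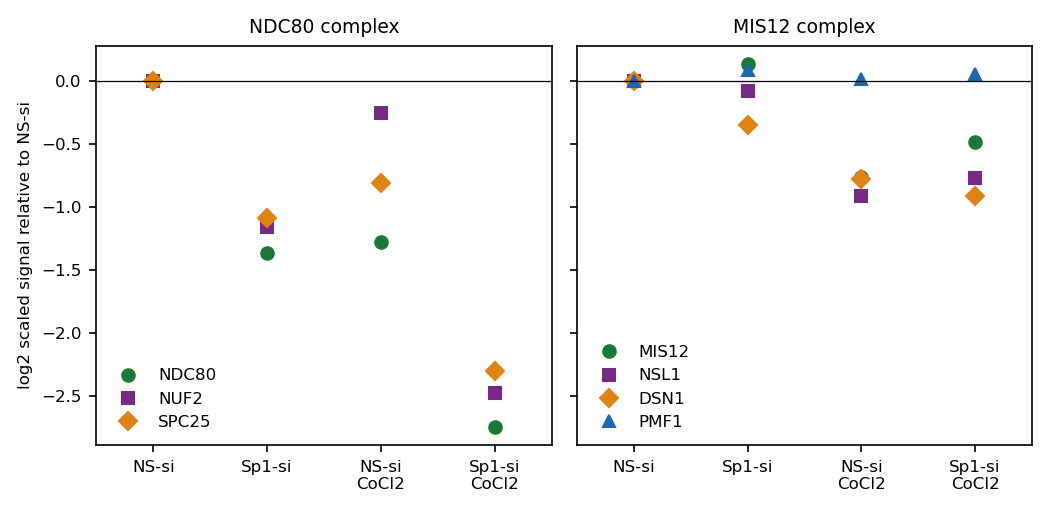
Log2 scaled signal relative to NS-si (y axis) on each of the 4 arrays (x axis) for the measured subunits of the NDC80 complex (left) and the MIS12 complex (right), 1 point per gene and array with no replicate. The NDC80 subunits are lower than NS-si in both Sp1-si conditions, with Sp1-si to NS-si ratios of -1.37, -1.16 and -1.09 without CoCl2, while the MIS12 subunits lie between -0.34 and 0.14 in Sp1-si cells and MIS12, NSL1 and DSN1 have CoCl2 ratios of -0.76, -0.91 and -0.78 in NS-si cells.

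The fibrous corona and the RZZ complex recruit dynein and checkpoint proteins to the kinetochore. ZWINT, which joins the RZZ complex to the outer kinetochore, had signals of 2385 (NS-si), 797 (Sp1-si), 1680 (NS-si CoCl2) and 824 (Sp1-si CoCl2). The log2 ratios were -1.53 and -1.42, the lowest of the 6 genes in this group on both pairs. CENPE, the kinesin that carries chromosomes toward the metaphase plate, had signals of 335, 143, 130 and 111 in the same order on its 9-spot probe. Its ratio was -1.17 ± 0.08 without CoCl2 and -0.62 ± 0.11 with CoCl2 (SD between spots). After scaling, NS-si was the high array for CENPE and Sp1-si CoCl2 the low one, with NS-si CoCl2 and Sp1-si between them.

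CENPF, a large coiled-coil protein of the corona, had signals of 8818, 5200, 7797 and 6631 in the same order, and gave -0.71 and -0.63. The 3 subunits of the RZZ complex proper were closer to 0 without CoCl2, with -0.38 for KNTC1 (ROD), -0.21 for ZWILCH and -0.02 for ZW10. With CoCl2 they spread to -0.16 for KNTC1, which was 0.24 without scaling between the arrays, to -0.60 for ZWILCH and to 0.63 for ZW10. ZW10 had signals of 540 (NS-si), 514 (Sp1-si), 391 (NS-si CoCl2) and 799 (Sp1-si CoCl2), so that Sp1-si CoCl2 was the high array.

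The checkpoint genes and CDC20, the activator of the anaphase-promoting complex that the checkpoint blocks, were 4 of 7 at least 2-fold lower in Sp1-si cells without CoCl2 and 1 of 7 with CoCl2. The shares over all genes were 6.18% and 8.04%. MAD2L1, which locks onto CDC20, had signals of 1330 (NS-si), 617 (Sp1-si), 852 (NS-si CoCl2) and 468 (Sp1-si CoCl2), with ratios of -1.05 and -1.26, the latter becoming -0.86 without scaling between the arrays. CDC20 itself had 1524, 703, 927 and 634, with ratios of -1.06 and -0.94. The kinase BUB1 had 660, 272, 483 and 463, and the kinase TTK (MPS1), which starts checkpoint signalling, 376, 151, 201 and 172. For both kinases NS-si was the high array, and for BUB1 the Sp1-si array was the low one. BUB1 gave -1.22 and -0.46, TTK -1.26 and -0.62, and BUB1B (BUBR1) -0.99 and -0.45. The remaining genes of the group, BUB3 at 0.03 and 0.07 and MAD1L1 at -0.03 and -0.21, lay near 0.

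The chromosomal passenger complex corrects faulty attachments. BIRC5 (survivin), which places the complex at the inner centromere, had signals, on an 8-spot probe, of 10712 (NS-si), 2024 (Sp1-si), 10896 (NS-si CoCl2) and 2143 (Sp1-si CoCl2). The Sp1-si to NS-si ratio was -2.35 ± 0.06 without CoCl2, 5.10-fold lower, and -2.74 ± 0.05 with CoCl2, 6.69-fold lower (SD between spots). Its kinase AURKB had signals of 190, 59.9, 132 and 55.6, with ratios of -1.61 and -1.64, which fell short of 2-fold at -0.84 and -0.97 under normexp. INCENP, the scaffold, had ratios of -0.83 and -0.75, so the 3 passenger genes of the set were below NS-si on both pairs.

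The other mitotic kinases differed. PLK1 had signals of 3381 (NS-si), 1485 (Sp1-si), 1788 (NS-si CoCl2) and 1713 (Sp1-si CoCl2), with ratios of -1.13 and -0.46, and its other probe gave -1.09 and -0.52. AURKA, the centrosomal Aurora kinase, had 2818, 2525, 1327 and 2134, with ratios of -0.10 and 0.29. Aurora A and Aurora B RNAs thus differed in the Sp1-si to NS-si ratio by more than the spread between spots on both pairs. That spread does not cover differences between probes. The B-type cyclins, partners of CDK1 at the entry into mitosis, were not past 2-fold. CCNB1 gave -0.77 without CoCl2 and -0.12 with CoCl2, a value that turned to 0.28 without scaling between the arrays, and CCNB2 gave -0.75 and -0.68.

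CENPJ stands apart from the other genes by role, since its product builds centrioles and not kinetochores. Its signals were 497 (NS-si), 787 (Sp1-si), 374 (NS-si CoCl2) and 1057 (Sp1-si CoCl2), with both Sp1-si arrays high and ratios of 0.72 and 1.102. A dimmer probe of the same gene, with signals of 29.6, 36.2, 27.2 and 38.5, gave 0.34 and 0.10. The 9 genes under 0.3 in size on both pairs were CENPB, CENPL, CENPO, MIS12, NSL1, PMF1, BUB3, MAD1L1 and AURKA.

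The CoCl2 ratios share arrays with the ratios above and are given beside them as values. In NS-si cells the median CoCl2 ratio of the 40 genes was -0.27, against 0.00 for all genes. NDC80 at -1.28 and CENPE at -1.14 were at least 2-fold lower and 0 genes at least 2-fold higher, on a background of 3.52% lower and 4.21% higher. The ratio was below 0 for 32 of the 40 genes, against 49.4% of all genes. Without scaling between the arrays, 8 of the 40 were at least 2-fold lower, against 6.23% of all genes, and under normexp CENPE was short of 2-fold at -0.84. In Sp1-si cells the median was -0.23, against -0.0018 for all genes, and it was -0.0052 without scaling between the arrays. The 4 genes at least 2-fold lower were NDC80 at -1.38, NUF2 at -1.32, SPC25 at -1.22 and CENPQ at -1.001, on a background of 3.92%, and 0 were at least 2-fold higher, on a background of 3.68%. CENPQ was short of 2-fold under 4 of the alternatives, the lowest in size being -0.78 without scaling, SPC25 was short of it at -0.99 without scaling, and NUF2 at -0.99 under normexp.

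NDC80 was lower after CoCl2 in both kinds of cells, and NUF2 mainly in Sp1-si cells, where its CoCl2 ratio of -1.32 compared with -0.26 in NS-si cells. The difference of these ratios, -1.06 with an SD between spots of 0.15, was the only one of the 40 that passed 2-fold downward, on a background of 2.86%, and it was -0.61 without scaling. None of the 40 passed 2-fold upward, on a background of 0.994%. BUB1, CCNB1, PLK1, ZW10 and TTK differed the other way, by 0.77, 0.66, 0.68, 0.65 and 0.64. For CCNB1, PLK1 and TTK, the CoCl2 ratio was -0.78, -0.69 and -0.68 in NS-si cells and -0.13, -0.02 and -0.04 in Sp1-si cells, where these genes were already lower without CoCl2. The values in Sp1-si cells turned to 0.10, 0.21 and 0.18 without scaling.

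**Figure D4:**
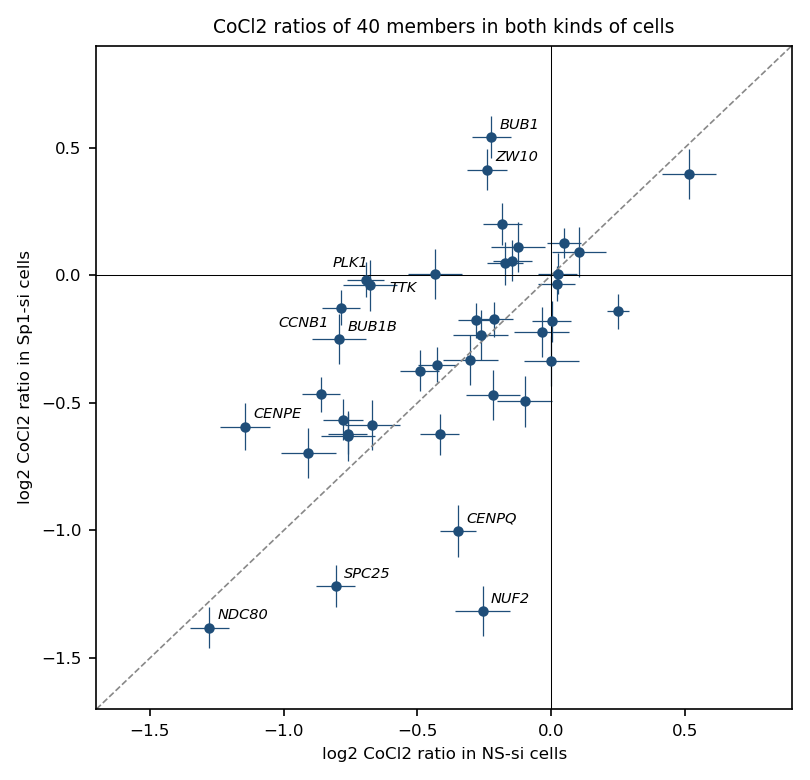
Log2 CoCl2 ratio of the 40 genes in NS-si cells (x axis) and in Sp1-si cells (y axis), with bars for the SD between spots and a dashed line where both are equal. NDC80 is low on both axes at -1.28 and -1.38, NUF2 lies below the line at -0.26 and -1.32, and BUB1 above it at -0.22 and 0.54.

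Of the 40 genes, 9 had several probes. PLK1 and CENPF gave like Sp1-si to NS-si ratios on each of their probes, with gaps of at most 0.06 for PLK1 and 0.13 for CENPF. The 4 probes of CENPN, which reads CENP-A nucleosomes, fell into 2 pairs by the RefSeq transcript they are annotated to. Which transcripts each probe matches was not checked. The pair annotated to NM_001100624 had NS-si signals of 202 and 396 and Sp1-si signals of 57.1 and 113, with ratios of -1.77 and -1.76 without CoCl2 and -1.44 and -1.37 with CoCl2. The pair on NM_018455 gave -0.70 and -0.73 without CoCl2 and -0.50 and -0.49 with it. In these ratios the probes of a pair differed by no more than the spread between spots, while the pairs differed by about 1 on the log2 scale. In the CoCl2 ratios the probes of a pair were further apart than that spread. In NS-si cells these were -0.09 and 0.21 for the first pair and -0.15 and 0.03 for the second. In Sp1-si cells they were 0.24 and 0.59, and 0.06 and 0.27. By the brightest probe, on NM_018455, CENPN did not count among the 18 genes past 2-fold, and by the mean of its probes, -1.24, it would.

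BUB3, which carries BUB1 and BUBR1 to the kinetochore, had 2 probes on NM_001007793 at 0.03 and 0.07 without CoCl2. Its probe on NM_004725 had signals of 1898 (NS-si), 3184 (Sp1-si), 1572 (NS-si CoCl2) and 1884 (Sp1-si CoCl2). That probe was high in Sp1-si cells alone, with a Sp1-si to NS-si ratio of 0.80 without CoCl2 and -0.13 with it. CENPB likewise had a probe at -0.85 with CoCl2 where its brighter probe was at -0.07. The second probes of CENPI and NDC80 were dim. That of CENPI had signals of 33.7 (NS-si), 8.08 (Sp1-si), 26.1 (NS-si CoCl2) and 14.5 (Sp1-si CoCl2), and neither Sp1-si signal was well above background. Taken as measured, its log2 Sp1-si to NS-si ratios were -2.01 and -1.24, with an SD between spots of 0.37 and 0.38. These values are uncertain and do not settle whether CENPI was past 2-fold on both pairs. For NDC80 the ratio with CoCl2 is a bound, at least 1.71-fold lower.

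**Figure D5:**
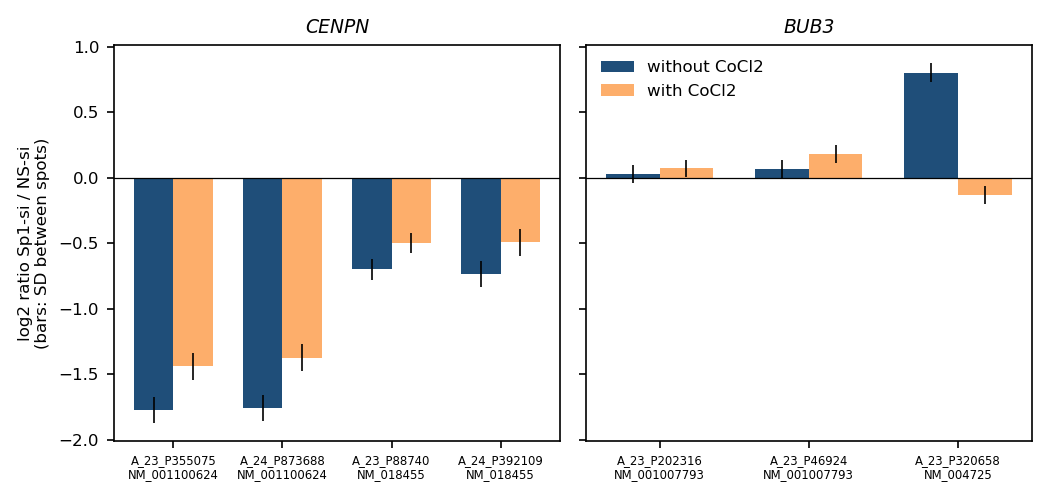
Log2 Sp1-si to NS-si ratio (y axis) of each probe of CENPN (left) and BUB3 (right), labelled with the RefSeq transcript it is annotated to (x axis), without CoCl2 in dark blue and with CoCl2 in orange, with error bars for the SD between spots. The CENPN probes on NM_001100624 lie at -1.77 and -1.76 without CoCl2 against -0.70 and -0.73 for those on NM_018455, and the BUB3 probe on NM_004725 lies at 0.80 without CoCl2 against 0.03 and 0.07.

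Other genes of the same processes, and of steps before them in the cell cycle, were taken from lists made by function. Of 18 other kinetochore genes measured, 9 were at least 2-fold lower in Sp1-si cells without CoCl2 and 6 with it, with medians of -0.93 and -0.73. They included SKA1 at -1.71 and -2.05, whose complex follows microtubule ends, while CENPX was highest at 0.58 and 0.75. Of 37 other mitotic genes, 18 were at least 2-fold lower without CoCl2 and 15 with it, with medians of -0.97 and -0.84. TOP2A, the topoisomerase that untangles chromosomes, was lowest at -2.22 and -1.92, and CDC25B, a phosphatase that activates CDK1, was higher at 1.06 and 1.19. Of 24 genes of DNA replication and the G1/S step, 5 were at least 2-fold lower without CoCl2 and 4 with it, with medians of -0.60 and -0.24. Of 15 regulators of G2/M genes, 3 were at least 2-fold lower without CoCl2 and 4 with it, with medians of -0.31 and -0.31. FOXM1, MYBL2 and LIN54 passed on both pairs and TFDP1 with CoCl2 alone. The shares over all genes were 6.18% without CoCl2 and 8.04% with it, as above.

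The genes that lie next to the 11 members lower on both pairs, up to 3 on each side in the order of the RefSeq table, were measured in 17 cases that are not members themselves. Of these 17, 1 (C6orf141, near CENPQ, at -1.04) was at least 2-fold lower without CoCl2 and 0 with it, where ABCB11 had no ratio. Over all genes the shares were 6.18% and 8.04%, so these counts are near the background. The median was 0.05 without CoCl2 and -0.17 with it. Beside CENPH, KGD4 was at 0.05 and 0.07 CDK7 at 0.06 and -0.13, and CCDC125 at -0.44 and -0.94, and the member CCNB1 on the other side was at -0.77 and -0.12. Beside BIRC5, the thymidine kinase gene TK1 was at -0.97 and -0.72, AFMID at 0.83 and 0.80, and SYNGR2 at 0.58 and 0.40. METTL4, near NDC80, was at -0.66 and -0.60, and LINC00324, next to AURKB, at -0.51 and -0.81. The others ran from -0.21 (ABCB11) to 0.39 (BORCS6) without CoCl2. NOSTRIN, next to SPC25, was higher in Sp1-si cells at 1.42 and 1.45, where SPC25 was lower. Of all genes, 6.18% were at least 2-fold higher without CoCl2 and 7.17% with it.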

How the data were processed

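RNA of OVSAYO cells was measured on 4 Agilent single-colour arrays, 1 per condition. The intensity values were deposited by the authors as Agilent Feature Extraction 10.5.1.1 wrote them, with the background subtracted, trends across the array removed and low signals replaced, and with no normalization between arrays. The authors' value table holds the same intensity multiplied by 1 constant per array, from 1.25 to 1.58, with column medians of 196.8 to 219.7, and no source used here states its scaling.

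From these, log2 signals of non-control spots without outlier spots were averaged per probe after subtraction of the 75th percentile of the array. A probe was well above background where at least 50% of its spots were. RefSeq accessions gave 26222 of 41000 probes a symbol (GRCh38.p14 table). The array was designed on an older build, so no probe coordinates are given. Where a gene had several probes, the one of highest mean signal stood for it, and for the members 40 of 40 such probes passed on all arrays, at signals of 41.4 to 10896. A gene was measured in a ratio where its probe was well above background on at least 1 of the arrays compared, or on all 4 for a difference of CoCl2 ratios. Where only 1 side was above background, the ratio was taken as a bound.

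The members and lists were chosen with earlier results of these data known. Values are given for members past 2-fold in any ratio, for the highest and lowest of each role group, for probes that differ by 1 or more, for the neighbours of CENPH and the neighbours farthest from 0, and for other members as examples. With 1 array per group no test was run. In simulated arrays, 200 of 200 genes planted well past the 2-fold limit were recovered. The planted genes were bright, the noise was small and every gene was taken as above background. That run checked the scaling and ratio steps only. It says nothing on dim probes, the choice of probe or differences between cultures. Alternatives were median, quantile, no or another percentile scaling, the authors' table, outlier spots kept, a normexp background correction with an offset of 50, the mean over probes, a filter on dim genes and a 1.5-fold threshold. Tools were limma 3.58.1 in R 4.3.3, and pandas 2.3.3, numpy 2.4.6 and matplotlib 3.10.9 in Python 3.11.15.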

Additional observations from a re-analysis of the deposited data

Results flagged for a closer look

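For 4 genes the CoCl2 ratio pointed one way in NS-si cells and the other way in Sp1-si cells, each by more than 2 SD between spots. With 1 array per condition, these differences were not tested. The log2 CoCl2 ratio of BUB1 was -0.22 with the control siRNA and 0.54 with Sp1 siRNA, which differ by 0.765. ZW10 had -0.24 and 0.41, a difference of 0.653. CENPJ had -0.18 and 0.20, a difference of 0.384, and its dimmer probe gave 0.10 and -0.14, which is the opposite order. BIRC5 had 0.25 and -0.14, a difference of -0.392 that turned to 0.06 without scaling between the arrays.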

How the results depend on the processing

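No paired analysis was possible because each condition is 1 array and the labels give no replicate numbers that pair samples. No value of the 40 genes past 2-fold changed sign under the alternatives, and of 1600 recomputed values of single genes 1205 moved by less than the SD between spots. That share is partly fixed by the settings. The mean over probes leaves genes with 1 probe unchanged, and only 66 to 73 spots per array were outliers. The normexp correction on mean signals was not run, since the columns used here hold median signals, and a version on median signals was chosen after the data were seen. The median Sp1-si to NS-si ratio without CoCl2 was -0.71 with normexp and -0.95 as the mean over probes. With CoCl2 it was -0.50 with median scaling, -0.51 with quantile normalization, -0.21 without scaling and -0.53 with normexp. The median CoCl2 ratio was -0.50 without scaling and -0.35 in the authors' table for NS-si cells, and -0.12 with median scaling and -0.0052 without scaling for Sp1-si cells. The median difference of the CoCl2 ratios was 0.53 without scaling, which moved the median of all genes by 0.45 there, by 0.39 for the Sp1-si to NS-si ratio with CoCl2, by -0.22 for the CoCl2 ratio of NS-si cells, by 0.21 for that of Sp1-si cells and by 0.11 or less for the other scalings. Members past 2-fold are given beside the share of all genes past it under the same setting, in the same direction or directions. For CoCl2 in NS-si cells they numbered 8 without scaling (6.23% lower), 1 with normexp (1.40% lower) and 13 at 1.5-fold (10.2% lower). For CoCl2 in Sp1-si cells they numbered 2 without scaling (2.34% lower), 2 with normexp (2.17% lower) and 10 at 1.5-fold (11.3% lower). For the difference they numbered 0 with median scaling (3.65%), quantile normalization (3.82%) or normexp (2.05%), 6 without scaling (6.41% higher) and 7 at 1.5-fold (13.6%, 2 of the 7 lower). For the Sp1-si to NS-si ratio with CoCl2 they numbered 23 at 1.5-fold, of which 21 were lower (18.2%) and 2 higher (16.6%), and without scaling 3.78% of all genes were 2-fold lower and 16.0% higher. Under normexp, CENPA, CENPI, CENPE, CENPQ and AURKB fell short of 2-fold without CoCl2, at -0.83, -0.78, -0.92, -0.98 and -0.84, and 13 of 40 genes were at least 2-fold lower. CENPJ with CoCl2 was 0.96 with normexp and 0.60 as the mean over probes. The cause of these changes was not tested. Dim probes limit the precision, since the SD between spots of the dimmest 10-spot probes was 0.37 against 0.06 for the brightest.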
